A study of Mus musculus with 12 samples.

Results

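The Lys-CTT family is a set of 168 sequences, of 2971 in all, that match the 5′ end of lysine tRNA in small RNA from mouse sperm. Its members were chosen by sequence and abundance: in order of mean level over the 12 libraries, each sequence joined the family of the nearest more abundant sequence within 2 edits, with the shorter placed inside the longer, or else founded a family. The family founded by a 33-nt lysine sequence is described here. It was the fifth of 19 families by mean total, at 26380 RPM (reads scaled to the same total in every library), or 2.69% of the table. Only mean levels were used in choosing members, so the mean totals are a description. At the limit of 2 edits, 1 member joined, the 33-nt Lys-TTT fragment at 236 RPM, while 5 sequences that joined other families also lay 2 edits from the nearest member, at 4.33 to 16.8 RPM. A further 41 lay 3 edits away, at 3.18 to 304 RPM. With a limit of 1 edit the family held 150 sequences, none of them a Lys-TTT fragment.

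Lysine tRNAs carry lysine to AAG and AAA codons, which they read with the anticodons CTT and TTT, written here as DNA. In cells, tRNAs can be cut in or near the anticodon loop, which leaves 5′ fragments that hold the acceptor strand, the D arm and part of the anticodon arm. Such fragments are abundant in mature mouse sperm, gain in amount as sperm pass through the epididymis, and are known for their response to paternal diet.

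The label Lys-CTT holds for most members but not for all. Positions are counted from 1 at the first base of the founding sequence, and the anticodon takes positions 34 to 36. The members fall on 3 tRNA forms, which are shown because the comparisons between forms rest on them. In capitals are positions 7, 28 and 29 and the anticodon, where the forms differ or are read.
A29 form, founding sequence of 33 nt: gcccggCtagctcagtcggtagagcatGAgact
A29 form, 36 nt: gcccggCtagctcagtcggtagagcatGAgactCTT
G29 form, 36 nt: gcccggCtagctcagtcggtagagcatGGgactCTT
Lys-TTT form, 33 nt: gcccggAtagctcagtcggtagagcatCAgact
Lys-TTT form, 36 nt: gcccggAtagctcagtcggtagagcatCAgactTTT
The G29 form differs from the A29 form by A29G in the anticodon stem. The Lys-TTT form differs from it by C7A, G28C and C34T, the last of which makes the anticodon TTT. The A29 form held 118 sequences and 85.1% of the family's mean level, the G29 form 23 sequences and 8.49%, and the Lys-TTT form 18 sequences and 2.66%. A further 9 sequences (3.73%) hold no base that tells A29 from G29. Members that end at position 29 were assigned to a form by their last base alone, so their form is less certain. Those of positions 1 to 29 had 115 RPM in the G29 form and 284 RPM in the A29 form. The RefSeq gene table for mouse lists 24 tRNA genes for lysine with the anticodon CTT and 2 with TTT, and the fragments were not matched to single genes.

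The sperm were histone replacement-completed sperm (HRCS), in which protamines have taken the place of histones, collected from caudal epididymis and vas deferens through 82% Percoll after mild sonication. The 4 groups were Atf7 heterozygotes (ATF7+/-) on low protein diet, Atf7 heterozygotes on control diet, wild-type males on low protein diet and wild-type males on control diet, with 3 libraries each. The diets were given from week 3 to week 12 of age, and the question was how the diet, and loss of 1 copy of Atf7, a stress-responsive transcription factor, alter small RNA in sperm. Nothing in the labels says that the libraries of a group came from separate animals or how many animals a library holds, so p-values measure the spread between libraries, which may be technical. The table lists tRNA fragments alone and holds no gene that marks a cell type, so the purity of the sperm was not checked here.

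Library totals lay between 2198744 and 6870039 reads, and 3 counts correspond to 0.437 to 1.36 RPM. All heterozygous libraries on low protein diet (4828916 to 6870039 reads) were deeper than all wild-type libraries on that diet (2278880 to 2874170 reads), so the genotypes on low protein diet also differ in depth. The libraries on control diet did not form even groups. The share of Lys-CTT reads that lack the first bases was 14.8, 11.8 and 5.22% in replicates 1, 2 and 3 of the heterozygotes on control diet and 19.8, 7.38 and 5.19% in wild type on control diet, against 3.20 to 7.10% in the 6 libraries on low protein diet. Replicates 1 and 2 of both genotypes on control diet thus lie above replicate 3 and above the low protein libraries. For wild-type replicate 2 the margin is small, at 7.38% against 7.10% in heterozygous low protein replicate 1. Values without replicates 1 and 2 on control diet are given beside the diet results. Leaving them out keeps 1 control library per genotype, which is then assumed in edgeR to vary like the low protein libraries. As they were singled out for this share, such values describe what rests on them.

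The family's level was carried by few sequences. The 10 most abundant members held 76.2% of it. The founding sequence had 6151, 4635 and 5390 RPM in heterozygotes on low protein diet and 4512, 3703 and 4683 RPM in heterozygotes on control diet. It had 5775, 5461 and 5058 RPM in wild type on low protein diet and 2747, 3929 and 5105 RPM in wild type on control diet. The ranges of the groups overlap in both genotypes, and the lowest library is wild-type control-diet replicate 1. The other leading A29 fragments share its first base and end at position 31 (4519 RPM), 32 (3519), 34 (1907), 30 (1436), 35 (767) and 36 (766). Also among the 10 were the 36-nt G29 fragment (1127 RPM), the 28-nt fragment that stops before position 29 (691 RPM) and the founding sequence with T33C at its last base (599 RPM).

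Most members start at the first base of the tRNA. This was so for 122 sequences and 92.5% of the mean level, and 3 of these carry a changed first base. Members with this start are counted as having the first base. A further 29 sequences started at position 2 (5.89%), 11 at position 3 (1.32%), 3 at position 4 (0.246%), and 1 each at positions 6, 7 and 18. The 3′ ends of members with the first base gathered just before the anticodon: position 33 took 24.2% of the family's level, position 31 took 18.5%, position 32 took 15.8% and position 34 took 11.2%. Reads were 36 bp and the longest members are 36 nt, so a 36-nt member may stand for a fragment of 36 nt or for a longer one, and the alternatives cannot be told apart.

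The 3 forms ended at different places. Among fragments that start at the first base, end at positions 30 to 36 and carry no other difference, 61.3% ± 13.6 of G29 reads ended at position 36, against 4.22% ± 1.74 of A29 reads (SD, n = 12 libraries). As reads were 36 bp, an end at position 36 may be the limit of the read and not the end of the fragment. The G29 share was the higher in 12 of 12 libraries, and the lowest G29 value, 33.8% in heterozygous control-diet replicate 3, is above the highest A29 value, 7.68% in the same library. An exact sign-flip test over libraries gave p = 0.000488, the smallest it can give, and 0.0013 after Benjamini-Hochberg adjustment over 8 such comparisons. In contrast, 4.35% ± 1.20 of G29 reads ended at position 33 and 1.75% ± 0.588 at position 32. Lys-TTT fragments gathered at positions 33 (43.8% ± 6.66) and 34 (32.9% ± 5.42), with 35.3% ± 5.56 ending at positions 34 to 36, against 19.1% ± 4.84 of A29 reads. They ended less often at positions 31 or 32, with 19.2% ± 5.20 against 45.9% ± 6.09 of A29 reads, lower in 12 of 12 libraries. Both differences had an exact p of 0.000488 and an adjusted p of 0.0013. These comparisons were chosen after the data were seen.

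Levels of the whole family did not separate the groups. The total was 25340 ± 2672 RPM in heterozygotes on low protein diet and 25989 ± 3708 RPM in heterozygotes on control diet (SD, n = 3). It was 27597 ± 820 RPM in wild type on low protein diet and 26595 ± 2887 RPM in wild type on control diet. By edgeR quasi-likelihood on family totals, the log2 fold change with diet was 0.05 in wild type and −0.04 in heterozygotes, and with genotype −0.12 under low protein and −0.03 under control diet, each with a standard error (SE) of 0.16. For Lys-CTT the adjusted p over the 19 families was at least 0.618 in each of the 7 comparisons, while 2 of the 19 families were called for genotype on low protein diet and 2 for genotype over both diets. Exact permutation tests over libraries gave p = 0.2 to 0.9, where 3 libraries against 3 allow no p below 0.1. The sign of the genotype difference turned under TMM scaling, to 0.04 with low protein and 0.06 with control diet. The libraries are bulk, so fewer sperm that carry a fragment and less of it per sperm cannot be told apart, and RPM values are shares of the reads in a library.

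Single members gave no call between the diets within a genotype, and 16 calls when the diets were compared over both genotypes. A call is an adjusted p under 0.05 by edgeR quasi-likelihood, adjusted over all 2971 sequences. In wild type 0 members were called, where 2.52% of all sequences were, and 32 members (19.05%) had an unadjusted p under 0.05, beside 21.8% of all sequences. In heterozygotes 0 members were called, where 0.101% of all sequences were, and 19 (11.3%) had an unadjusted p under 0.05, beside 16.9% of all sequences. DESeq2 called 9 members and 327 of the 2971 sequences in wild type, and 2 members and 45 sequences in heterozygotes, while limma called 0 members and 0 sequences in either. Over both genotypes 3 members were higher and 13 lower on low protein diet, of 168. That is near the background, in which 11.9% of all sequences were called, 1.55% higher and 10.3% lower. DESeq2 called 30 members and 530 of the 2971 sequences there, and limma 0 of either. With edgeR the count was 0 when wild-type low protein replicate 1 or 2, heterozygous low protein replicate 2 or 3 or heterozygous control replicate 1 was left out, and 39 members (of 714 sequences called) and 45 members (of 798) without replicate 3 on control diet of wild type and of heterozygotes. The median log2 fold change over both genotypes was −0.05 for members and −0.01 for all sequences.

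The 13 lower members all lacked the first base. Sequences that show the class are given here, in capitals the positions named above and any base that differs from the member's own form.
A29, positions 2 to 31: cccggCtagctcagtcggtagagcatGAga
A29, positions 2 to 36: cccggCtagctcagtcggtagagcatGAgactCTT
A29, positions 3 to 37: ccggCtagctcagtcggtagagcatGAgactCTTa
Lys-TTT, positions 2 to 34: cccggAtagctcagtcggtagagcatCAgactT
G29, positions 2 to 32: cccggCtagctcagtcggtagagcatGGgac
The A29 fragment of positions 2 to 31 had 315, 95.6 and 189 RPM in heterozygotes on low protein diet, against 675, 432 and 182 RPM on control diet. In wild type it had 141, 206 and 202 RPM on low protein diet, against 954, 515 and 200 RPM on control diet. Replicates 1 and 2 on control diet are the 4 highest libraries, while replicate 3 lies among the low protein values. Its log2 fold change over both genotypes was −1.36 (SE 0.40), with an edgeR adjusted p of 0.0465. With control-diet replicates 1 and 2 left out it was 0.00 (adjusted p 0.999).

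Of the 13 lower members, 5 are Lys-TTT fragments. The one of positions 2 to 34 had 24.0, 8.01 and 18.8 RPM in heterozygotes on low protein diet, against 78.8, 42.9 and 20.0 RPM on control diet. In wild type it had 6.14, 7.65 and 13.0 RPM on low protein diet, against 132, 38.5 and 10.3 RPM on control diet. The groups overlap in both genotypes, through replicate 3 on control diet. Its log2 fold change was −2.13 (SE 0.54, edgeR adjusted p 0.0282), and −0.23 (adjusted p 0.817) without control-diet replicates 1 and 2. The Lys-TTT fragments of positions 2 to 33 (−1.47) and 2 to 32 (−1.76) were called as well, and without those replicates their log2 fold changes were −0.47 and −0.07. Those of positions 2 to 28 and 2 to 31 were also called, with under 3.5 RPM in every low protein library, and are given no fold because libraries of those groups held 0 to 3 counts.

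The remaining 7 lower members were the A29 fragments of positions 2 to 36 (−1.45), 2 to 34 (−1.74), 2 to 34 with C34T (−1.86), 2 to 30 with G30A (−1.28) and 3 to 37 (−0.81), the fragment of positions 2 to 28 that could be A29 or G29 (−1.22), and the G29 fragment of positions 2 to 32, which is given no fold for the same reason. The A29 fragment of positions 3 to 37 reaches past the anticodon. It had 10.98, 8.15 and 12.7 RPM in heterozygotes on low protein diet, against 38.7, 16.0 and 20.0 RPM on control diet, and 18.0, 19.5 and 16.5 RPM in wild type on low protein diet, against 23.9, 19.9 and 26.5 RPM on control diet. Its groups do not overlap in either genotype. Without control-diet replicates 1 and 2 its log2 fold change was −0.73 (SE 0.21, edgeR adjusted p 0.107). For the fragments of positions 2 to 36, 2 to 34, 2 to 34 with C34T, 2 to 30 with G30A and 2 to 28 it was then −0.85, −0.38, −0.33, −0.58 and −0.25, in this order.

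Most fragments without the first base pointed the same way. Over both genotypes 45 of the 46 had a negative log2 fold change, with a median of −1.24, where the 122 members with the first base had a median of 0.08. With control-diet replicates 1 and 2 left out, 33 of the 46 were negative, with a median of −0.32, and the median of the 122 was −0.11. Of the 46, the 3 low protein libraries lay below the 3 control libraries for 7 in heterozygotes and for 14 in wild type, or 15.2% and 30.4%, beside 8.25% and 10.97% of all sequences of the table. Their share of Lys-CTT reads was 5.10% ± 1.95 on low protein diet against 10.6% ± 4.91 on control diet in heterozygotes, and 4.29% ± 0.627 against 10.8% ± 7.87 in wild type. The difference over both genotypes was −6.00 percentage points (exact permutation p = 0.025, and 0.75 adjusted over 30 tests of shares), and ranged from −7.40 to −3.75 points with 1 library left out. When control-diet replicates 1 and 2 were left out it was −0.509 points, which is given with no test since they were singled out by this share.

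The rest of the table showed a difference of much the same size. Starts outside the Lys-CTT family were counted from the founding sequence of each sequence's own family. That sequence was not checked to begin at the first base of its tRNA, so the family and the rest may not be measured alike. There the share differed by −5.84 points (exact p = 0.025), and the gap between family and rest differed between the diets by −0.155 points (exact p = 0.92). The rest differed by −0.631 points once control-diet replicates 1 and 2 were left out. Across the 12 libraries the share was 7.70% ± 5.13 in the family and 8.08% ± 4.81 in the rest (exact sign-flip p = 0.422). It was 5.94% ± 5.39 in the family next above in total, which has the working name Glu-TTC, and 6.09% ± 5.05 in the family next below, Val-CAC. The Lys-CTT share was above that of Val-CAC in 11 of 12 libraries (exact sign-flip p = 0.00244, adjusted 0.00391), and above that of Glu-TTC in 10 of 12 (p = 0.0859).

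The forms differed in how often the first base was missing. It was missing from 13.0% ± 12.1 of Lys-TTT reads and 7.45% ± 5.04 of A29 reads (SD, n = 12 libraries), with the Lys-TTT share higher in 11 of 12 libraries (exact sign-flip p = 0.00244, adjusted 0.00391 over 8 comparisons). Lys-TTT reads reached 46.0% in wild-type control-diet replicate 1. It was missing from 5.43% ± 1.96 of G29 reads, which is below the A29 share in 9 of 12 libraries (exact p = 0.0259, adjusted 0.0345). In the 8 libraries other than control-diet replicates 1 and 2, the share was 6.50% in Lys-TTT and 4.63% in A29 (higher in 7 of 8), and 4.36% in G29 (above A29 in 3 of 8). The diet difference was −13.2 points in Lys-TTT and −5.94 points in A29, and the test of the gap between forms gave an exact p of 0.06. Without wild-type control-diet replicate 1 these differences were −7.43 and −3.77 points, and without replicates 1 and 2 of both genotypes on control diet they were −0.510 and −0.597 points.

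Fragments that start at the first base and end at position 33, just before the anticodon, took a larger share of the family in every low protein library. Members with another base at position 33, such as T33C, are counted in this share. The share was 29.2, 28.6 and 28.5% in heterozygotes on low protein diet against 21.7, 22.3 and 22.4% on control diet, and 28.8, 25.3 and 24.0% in wild type on low protein diet against 15.8, 19.8 and 23.0% on control diet. All 6 low protein libraries lie above all 6 control libraries. The difference over both genotypes was 6.57 points, and the exact permutation test within genotypes gave p = 0.005, its lower limit, or 0.09 after adjustment over 36 tests. This share was chosen after the data were seen. Among reads that keep the first base the difference was 5.47 points (exact p = 0.005, adjusted 0.09), with 30.3% ± 0.998 against 24.8% ± 1.00 in heterozygotes and 27.2% ± 2.43 against 21.8% ± 2.28 in wild type. Leaving out control-diet replicates 1 and 2 gave differences of 4.71 and 4.82 points, each with an exact p of 0.0625, the smallest that 1 control library against 3 in each genotype allows.

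The 33 members of this kind share most of their sequence, and 2 of them were called. All 33 had a positive log2 fold change in heterozygotes and 29 of 33 in wild type, with medians of 0.39 and 0.35, where the medians of all sequences were 0.03 and −0.10. Over both genotypes all 33 were positive, but without control-diet replicates 1 and 2 the count was 19 of 33, with a median of 0.11. Within genotypes the count was then 22 of 33 in heterozygotes (median 0.09) and 16 of 33 in wild type (median −0.001). Of the 3 members called higher over both genotypes, 2 end at position 33 and the other at position 34.
G1A, positions 1 to 33: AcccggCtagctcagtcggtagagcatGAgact
T20C, positions 1 to 33: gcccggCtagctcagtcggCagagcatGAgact
A26G, positions 1 to 34: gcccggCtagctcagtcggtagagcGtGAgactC
They are rare copies of leading A29 fragments with 1 changed base. The first had 8.28, 6.55 and 7.85 RPM in heterozygotes on low protein diet, against 6.27, 4.91 and 5.003 RPM on control diet, and 9.22, 7.31 and 8.25 RPM in wild type on low protein diet, against 2.55, 5.07 and 4.31 RPM on control diet. Low protein libraries are the higher within each genotype, without overlap. The log2 fold changes of the 3 members were 0.77 (SE 0.23), 0.82 (SE 0.25) and 0.89 (SE 0.27), with edgeR adjusted p-values of 0.0435, 0.0483 and 0.0491. Without control-diet replicates 1 and 2 they were 0.76, 0.59 and 0.37, and 0 of the 16 calls remained. In that fit, with 1 control library per genotype and the spread taken from the low protein groups, 8 other members were called, all lower, beside 1.82% of all sequences. Among them were 36-nt A29 fragments, G29 fragments ending at positions 34 and 35, and A29 fragments starting at positions 6 and 7, with log2 fold changes of −1.50 to −0.96. The 35 members that start at the first base and end after position 33 had a median of −0.33 in that fit, with 4 positive. With all libraries the direction was the opposite, with a median of 0.20 and 23 positive.

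Shares set by the other ends rest on which control libraries are kept. Reads that reach the anticodon made up 24.4% ± 1.73 on low protein diet against 22.8% ± 8.55 on control diet in heterozygotes, and 25.04% ± 0.187 against 23.6% ± 7.13 in wild type (exact p = 0.6 over both genotypes). The wide spread on control diet comes from replicate 3, at 32.7% in heterozygotes and 31.5% in wild type, where replicates 1 and 2 had 17.3 to 21.9%. Reads that keep the first base and end before position 33 made up 42.3% ± 0.488 against 45.7% ± 4.92 in heterozygotes and 45.2% ± 1.84 against 47.4% ± 5.51 in wild type (exact p = 0.205). Over both genotypes the differences were 1.51 and −2.79 points, and without control-diet replicates 1 and 2 they were −7.34 and 3.00 points, the opposite direction in both.

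Between genotypes on low protein diet the G29 form stood below wild type in every heterozygous library. Its level was 1680 ± 87.6 RPM in heterozygotes and 2668 ± 156 RPM in wild type, without overlap (ratio 0.630, exact p = 0.1, the smallest possible). Lack of overlap was common in this comparison, where depth also differs. Heterozygous libraries lay all below wild type for 14.2% of all sequences and 16.7% of members. They lay all above for 21.3% of all sequences and 4.76% of members. The 36-nt G29 fragment had 800, 641 and 710 RPM in heterozygotes, against 1333, 1463 and 1536 RPM in wild type. On control diet it had 1699, 924 and 792 RPM in heterozygotes, against 810, 1039 and 1777 RPM in wild type, and these libraries overlap. Its log2 fold change on low protein diet was −1.01 (SE 0.33), with an edgeR adjusted p of 0.155, not called. In a fit of these 2 groups alone 6 members were called, this one among them (adjusted p 0.00455), beside 12.5% of all sequences. In the fit of all groups 0 members were called, where 0.202% of all sequences were, and 6 (3.57%) had an unadjusted p under 0.05, beside 17.0% of all sequences, while DESeq2 called 1 member and 81 sequences and limma 0 members and 6 sequences.

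The same pattern stood in shares. G29 reads made up 7.25% ± 0.510 of G29 and A29 reads in heterozygotes and 10.5% ± 0.545 in wild type on low protein diet, while on control diet the shares were 10.3, 7.61 and 10.9% in heterozygotes and 8.28, 8.60 and 13.1% in wild type. The low protein groups did not overlap (exact p = 0.1, adjusted 0.225 over 36 tests), and the genotypes over both diets differed by −1.81 points (exact p = 0.09). The other members with the smallest p in this comparison were the G29 fragment of positions 1 to 36 with G6A (−1.21, SE 0.40, edgeR adjusted p 0.162) and the A29 fragment of positions 3 to 37 (−0.76, SE 0.32, adjusted p 0.256).

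On control diet the Lys-TTT form was the one to stand apart between genotypes. Its level was 873 ± 197 RPM in heterozygotes and 613 ± 95.1 RPM in wild type, without overlap (exact p = 0.1), and 710 ± 113 RPM and 615 ± 121 RPM on low protein diet, with overlap. On control diet the margin was small, at 702 RPM in heterozygous replicate 2 against 688 RPM in wild-type replicate 3. Heterozygous replicate 1 was the highest, at 1088 RPM. The Lys-TTT fragment of positions 1 to 31 had 142, 77.6 and 74.6 RPM in heterozygotes on control diet, against 37.4, 36.8 and 58.7 RPM in wild type on that diet. On low protein diet it had 33.3, 57.8 and 49.3 RPM in heterozygotes, against 45.2, 36.5 and 49.9 RPM in wild type, and the groups overlap. Its log2 fold change on control diet was 1.15 (SE 0.32), but the edgeR adjusted p was 0.965, with 0 members and 0% of all sequences called. The 3 members with the smallest p in this comparison were all Lys-TTT fragments, and those ending at positions 30 and 28 had log2 fold changes of 1.14 and 0.93 with the same adjusted p. The counts at an unadjusted p under 0.05 were 5 members and 125 of all sequences, and DESeq2 and limma called 0 members.

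As a share of family reads, Lys-TTT took 3.36% ± 0.534 in heterozygotes and 2.32% ± 0.413 in wild type on control diet, and 2.85% ± 0.741 and 2.24% ± 0.496 on low protein diet. Over both diets the difference was 0.827 points (exact p = 0.04, adjusted 0.225), and 0.588 points (exact p = 0.2) without control-diet replicates 1 and 2. Over both diets 0 members were called by genotype with edgeR, where 0.101% of all sequences were, and 13 (7.74%) had an unadjusted p under 0.05, beside 11.3% of all sequences, while DESeq2 and limma called 0 members. The 3 with the smallest p were the Lys-TTT fragments of positions 1 to 30 (0.71) and 1 to 31 (0.62) and the A29 fragment of positions 4 to 35 (−0.81), with adjusted p-values of 0.312, 0.326 and 0.340.

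The effect of diet was not shown to differ between the genotypes for any member. In edgeR's test of that difference 0 members and 0% of all sequences were called, and 2 members (1.19%) had an unadjusted p under 0.05, beside 9.83% of all sequences, while DESeq2 and limma called 0 members. The smallest p belonged to the Lys-TTT fragment of positions 1 to 31 (−1.05, SE 0.45, adjusted p 0.475), followed by the A29 fragment of positions 1 to 31 with G1C (0.84, SE 0.38, adjusted p 0.492) and the Lys-TTT fragment of positions 1 to 28 (−0.89, SE 0.42, adjusted p 0.506).

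Base differences from a member's own form were common at the last base and rare elsewhere. Of the 168 members, 60 had none (87.5% of the level), 43 differed at the last base (9.63%), 62 at an inner base (2.82%) and 3 at the first base (0.0814%). Sequences that show both kinds are given, in capitals also the changed base.
A29 with T33C at its last base: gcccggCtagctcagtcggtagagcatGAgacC
A29 with C34T at its last base: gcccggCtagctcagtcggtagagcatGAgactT
A29 with G6A: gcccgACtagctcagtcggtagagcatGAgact
A29 with G10A: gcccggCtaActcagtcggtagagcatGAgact
At position 33, the own base T ended 83.2% ± 1.31 of A29 reads of that length, C ended 10.5% ± 0.663, A 5.05% ± 0.615 and G 1.25% ± 0.238 (SD, n = 12 libraries). The C share was 9.94% ± 1.42 in the G29 form and 10.4% ± 1.52 in the Lys-TTT form. At position 34 of the A29 form T stood in place of C in 11.4% ± 1.51 of reads. At the ends at positions 31 and 36, 98.2% ± 0.298 and 93.8% ± 1.31 of A29 reads carried the own base.

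The share of last-base differences was highest in heterozygotes on low protein diet. Their share was 10.6, 11.4 and 11.9% there, against 7.95, 8.01 and 10.1% in heterozygotes on control diet, and against 9.59, 9.00 and 8.71% in wild type on low protein diet. Wild type on control diet had 10.5, 9.21 and 8.95%. Heterozygotes on low protein diet do not overlap with the groups that differ from them in diet or genotype alone (exact p = 0.1 each, adjusted 0.225). This share can also move with the ends that are present, as last-base differences were rarer at position 31 than at position 33. How far it did so was not tested. Among A29 reads ending at position 33, the own base took 82.3% ± 0.510 in heterozygotes on low protein diet and 84.0% ± 1.04 on control diet. In wild type it took 84.1% ± 0.0748 on low protein diet and 82.5% ± 1.96 on control diet, the latter close to heterozygotes on low protein diet. Inner differences made up 2.95% ± 0.0483 on low protein diet against 2.73% ± 0.0920 on control diet in heterozygotes, and 2.93% ± 0.159 against 2.69% ± 0.248 in wild type (exact p = 0.03 over both genotypes, adjusted 0.225).

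Among inner bases, position 6 stood out. G6A was the only difference in 11 members, and made up 0.984 to 1.36% of reads of the same start, end and form over these. A further member carried G6A together with T33C at its last base (6.60 RPM). In fragments that end at position 33 it was 1.07% ± 0.0246 in heterozygotes on low protein diet, 1.02% ± 0.0416 in heterozygotes on control diet, 1.06% ± 0.0207 in wild type on low protein diet and 1.02% ± 0.0569 in wild type on control diet (SD, n = 3), which differ by about the spread between libraries. The other changes at position 6, G6T and G6C, were at 0.135 to 0.165%. G10A was carried by 5 members at 0.411 to 0.592%, A31G by 3 at 0.342 to 0.45%, A23G by 4 at 0.366 to 0.406% and T12C by 4 at 0.304 to 0.321%. The other inner and first-base changes that could be set beside an unchanged sequence stood at 0.105 to 0.32%. Changes listed only in part, where a copy was too rare to enter the table, are missing from these shares.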

How the data were processed

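Small RNA was measured in 12 libraries of sperm RNA made with the NEBNext small RNA kit and sequenced as 36-bp paired-end reads, per the labels' protocols. The authors deposited 1 table of sequences that holds a count and an RPM value per library. The submitters' processing notes name the build mm10, with aligner and counter not given in the sources used here. Deposited counts were used as they stand, and deposited RPM values gave the library totals, of which the table holds 97.5 to 98.2%. No column of another sample was present.

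Families were built with edlib 1.3.9.post1 in Python 3.11.15, and sequences were compared with the RefSeq tRNA gene list of GRCm38.p6 by anticodon only. Sequences and family totals were tested with edgeR 4.0.16 quasi-likelihood (R 4.3.3) on the recovered totals with 4 group means, with a minimum mean of 1 RPM, which removed 0 of 2971 sequences, at an adjusted p of 0.05. Log2 fold changes are low protein over control diet or heterozygote over wild type. DESeq2 1.42.0, limma 3.58.1 on log2(RPM + 1), TMM scaling, a minimum of 10 RPM, an edit limit of 1, the replicate number as a block and leaving out each library were the alternatives. Scripts were tested on simulated data. Shares were tested by exact two-sided permutation over libraries, within genotype or diet where pooled. The text names the 10 most abundant members, the called members and the 3 with the smallest p in each comparison, and others were named after their values were seen. The members and lists were chosen with earlier results of these data known.

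Replicate numbers are shared by the groups. Between genotypes on control diet, deviations of same-numbered libraries had r = 0.547, 0.143 and 0.522 for replicates 1, 2 and 3. The value for replicate 2 is below that of a pair with different numbers (0.227). In the other comparisons r was at most 0.0617, except 0.414 for replicate 1 between diets in heterozygotes. The pairing comes from the data, not from the labels. The floor of 3 counts covers counting error only, since reads carry no molecular identifiers.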

Additional observations from a re-analysis of the deposited data

Results flagged for a closer look

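Of the members and shares checked, 1 member went opposite ways between genotypes on the 2 diets, with no overlap of libraries on either.
A29 with G1C, positions 1 to 31: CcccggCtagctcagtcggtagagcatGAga
It had 7.25, 7.28 and 9.92 RPM in heterozygotes on low protein diet, against 4.39, 6.96 and 6.51 RPM in wild type, a difference of means of 2.2 RPM. On control diet it had 6.99, 7.36 and 7.28 RPM in heterozygotes, against 9.42, 10.1 and 8.95 RPM in wild type, a difference of −2.3 RPM. The edgeR test of the difference between these effects gave an adjusted p of 0.492 over all sequences, so the member is not called.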

How the results depend on the processing

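The family total was not called under any setting, and its sign turned in several. With TMM scaling the log2 fold change was 0.061 for genotype on control diet, 0.040 for genotype on low protein diet, 0.050 for genotype over both diets and −0.0027 for diet over both genotypes, and DESeq2 gave 0.078 for genotype on control diet. Without control-diet replicates 1 and 2 it was −0.093 for diet in wild type and −0.13 for diet over both genotypes. Leaving out 1 library at a time gave −0.024 to 0.13 for diet in wild type, −0.15 to 0.043 for diet in heterozygotes, −0.11 to 0.080 for genotype on control diet and −0.048 to 0.048 for diet over both genotypes.

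Counts of members called moved most. For diet over both genotypes, 16 became 30 with DESeq2, 0 with limma, 5 with a minimum of 10 RPM, 8 without control-diet replicates 1 and 2 (beside 1.82% of all sequences), and 0 to 45 when 1 library was left out. That count was 0 without wild-type low protein replicate 1 or 2, heterozygous low protein replicate 2 or 3, or heterozygous control replicate 1, 1 without wild-type control replicate 1, 3 without heterozygous control replicate 2, 7 without wild-type low protein replicate 3, 9 without wild-type control replicate 2, 39 without wild-type control replicate 3 and 45 without heterozygous control replicate 3. For diet in wild type, 0 became 9 with DESeq2, 1 with the replicate block and 0 to 25 with 1 library left out, where 25 is without control replicate 3. For diet in heterozygotes it became 2 with DESeq2, 8 without control-diet replicates 1 and 2 (beside 2.39%), and 0 to 8 with 1 library left out, where 8 is without control replicate 3. For genotype on low protein diet it became 1 with DESeq2, 6 with those 2 groups alone (beside 12.5%) and 7 without control-diet replicates 1 and 2 (beside 12.4%). For genotype over both diets it became 3 without control-diet replicates 1 and 2 (beside 5.02%), and 0 to 4 with 1 library left out. With the replicate block the count for genotype on control diet was 0, as without it, and for diet over both genotypes it was 16.

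Shares over both genotypes moved as follows, in percentage points of low protein minus control diet. Without control-diet replicates 1 and 2, reads lacking the first bases gave −0.509, reads that reach the anticodon −7.34, reads ending before position 33 gave 3.00, reads with a base that differs from the founding sequence (the G29 and Lys-TTT forms included) −1.38 and the share of the table −0.261. With 1 library left out these ranged from −7.40 to −3.75, −0.0241 to 3.97, −4.34 to −1.72, −0.375 to 0.531 and −0.0970 to 0.0856. For heterozygotes minus wild type over both diets, 1 library left out gave −1.08 to 2.56 for reads lacking the first bases, −3.16 to 1.27 for reads that reach the anticodon, −3.91 to −1.01 for reads ending before position 33 and −0.0395 to 0.0832 for inner differences. Without control-diet replicates 1 and 2, reads that reach the anticodon gave 0.318 and inner differences −0.0463, which were −0.0125 with a minimum of 10 RPM. With the replicate block, reads ending before position 33 differed by −2.35 with an exact p of 0.03125. Without the block the exact permutation p for this difference was 0.3. The block joins libraries by replicate number, which the labels do not explain. On low protein diet, deviations of same-numbered libraries of the 2 genotypes had r = −0.40, −0.07 and 0.06, so the pairing is not borne out there. The cause of these moves was not tested. The 33-nt end share kept its direction in every setting run. An edit limit of 1 leaves no Lys-TTT member, so it gives no value for that form. The setting without control-diet replicates 1 and 2, which leaves 1 control library per genotype, was chosen after the data were seen.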
